A study of Mus musculus with 6 samples.

Results

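The proteasome genes measured here were those of subunits, assembly factors and regulators of the proteasome, chosen by symbol: Psma, Psmb, Psmc, Psmd, Psme, Psmf or Psmg followed by a digit. The immunoproteasome genes Psmb8, Psmb9 and Psmb10 were left out of the members and are described beside them. Of 25206 rows on the arrays, each standing for 1 Entrez gene, 45 were members, and no member was filtered out. The symbol rule also took in Psmc3ip, a meiotic recombination factor, and Psme3ip1, a protein that binds the activator PA28γ, neither of which is a subunit. Psmb3 and Psmb5, subunits of the core, lacked a named row and are not analysed here.

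The cells were mouse group 2 innate lymphoid cells (ILC2s), innate lymphocytes that secrete type 2 cytokines when IL-33 reaches them. Lines of the C57BL/6J strain were grown with IL-2 and IL-33, each given at 10 ng/ml, and received a lentiviral CRISPR construct that also carried GFP. The 3 knockout arrays came from cells with a guide against Cbfb, the gene of the RUNX partner CBFβ, and the 3 control arrays from cells with a non-target guide. GFP-positive cells of both groups were sorted 6 days after transduction. They were a transduced population, and the labels describe neither single-cell cloning nor the number of lines. Nothing in the labels ties the replicates to separate cultures, and p-values therefore reflect only the spread among these arrays, part or all of which may be technical.

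The 26S proteasome is the cell's main protease for ubiquitin-tagged proteins. Its barrel, the 20S core, stacks outer rings of alpha subunits, which gate the entrance, on inner rings of beta subunits, some of which cut peptide bonds. A 19S cap on the end of the barrel holds a ring of ATPases that unfold the substrate and non-ATPase subunits that bind and remove ubiquitin. Dedicated chaperones build the core and the cap. Lymphocytes can exchange the cutting subunits for the immunoproteasome versions, and the PA28 activators can bind the core in place of the cap. The transcription factor NRF1, encoded by Nfe2l1, is known to drive subunit genes together when proteasome activity falls short.

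Values are on a log2 scale, so a difference of 1 is a doubling of signal. The median value of an array was 3.57 to 3.63. All arrays differed from each other, with Pearson correlations over the rows of 0.9946 to 0.996 inside a group and 0.988 to 0.9908 across groups. Cbfb itself read 7.88, 7.69 and 7.91 in the knockout arrays and 8.53, 8.73 and 8.70 in the control arrays, 56.4% of the control signal (95% interval 48.2% to 66.0%; limma adjusted p = 0.00205). An edit need not remove a transcript, so the signal says nothing of how much was edited or how much protein was left. Of 10 ILC2 markers 9 were measured, of which 4 fell (Icos by 0.78, Il7r by 0.56, Id2 by 0.35 and Il5 by 0.33 on the log2 scale) and 1, Rora, rose by 2.22 (limma adjusted p 0.000562 to 0.0352). Their average, in which these changes offset each other, was 10.02 to 10.11 in the knockout arrays and 10.04 to 10.13 in the control arrays. Among markers of other cells, 1 of 7 T cell markers (Trac), 1 of 5 macrophage, monocyte and dendritic cell markers (Itgax) and Cpa3, 1 of 6 markers of mast cells and basophils, fell. Hdc, of the same list, rose, and 0 of 4 B cell markers passed (limma; of these 4 Cd79a alone had an unadjusted p under 0.05, 0.0457). Uncalled ILC2 and T cell markers Il2ra, Il13, Cd8a and Cd3d were lower at an unadjusted p under 0.05 (limma, 0.0104 to 0.0383). For comparison, 4.24% of all rows were called lower and 5.51% higher. T cell markers averaged 3.65 to 3.78 on the knockout and 3.80 to 3.91 on the control arrays. Macrophage, monocyte and dendritic cell markers averaged 3.51 to 3.75 on the knockout and 3.85 to 4.05 on the control arrays. Mast cell and basophil markers averaged 3.30 to 3.41 on the knockout and 3.62 to 3.69 on the control arrays, and B cell markers 2.38 to 2.54 on the knockout and 2.30 to 2.40 on the control arrays. No detection calls say which of these values are background, and their part in the results below was not tested. In a bulk sample, fewer cells of a type and less RNA per cell cannot be told apart.

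Proteasome genes leaned to lower values in the knockout arrays, by small amounts. Of the 45 members 39 had a lower mean in the knockout than in the control arrays and 6 had a higher one, with a median difference of -0.21, or 86.5% of the control signal. Over all rows the median difference was -0.0067, and 50.8% lay below 0. Of the 45 members 5 passed the test (limma, Benjamini-Hochberg adjusted p under 0.05 over all rows), all lower in the knockout and none higher, where 5.51% of all rows were called higher. These 5 are 11.1% of the members, where 4.24% of all rows were called lower and 9.75% were called in either direction. In 27 members, or 60%, every knockout array lay below every control array, against 13.4% of all rows. In 1 member, Psme1, every knockout array lay above every control array, against 14.1% of all rows. At an unadjusted p under 0.05 there were 22 members lower and 1 higher, where 10.9% and 12% of all rows were.

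Most proteasome genes read in the upper part of the range, where lower values in the knockout were also more frequent among other genes. Between control means of 7 and 10, a window set with the members' levels known, lay 33 members and 4139 rows. In this window 30 of those members had a difference below 0, against 58.1% of the rows, and 22 had knockout arrays all below the control arrays, against 34.2% of the rows. The members' median difference there was -0.25 and that of the rows -0.047. The 5 called members all lie in this window and are 15.2% of its members, close to the 12.9% of its rows that were called lower.

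**Figure D1:**
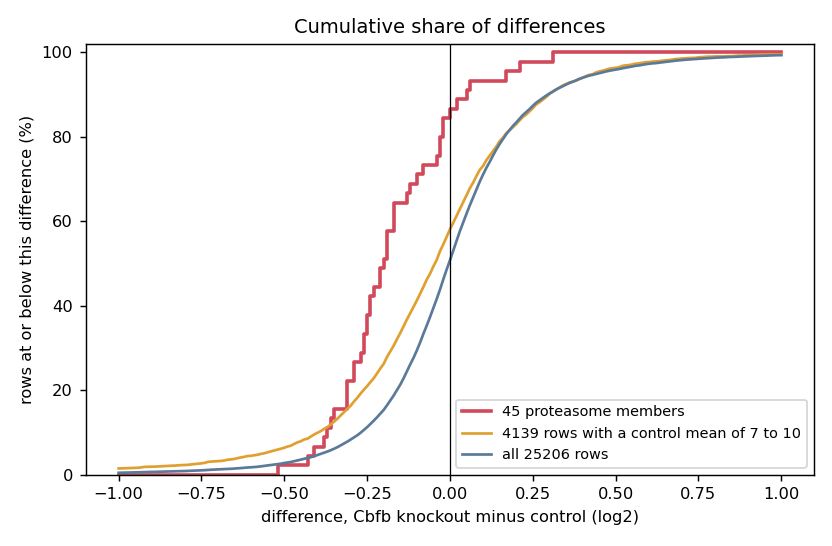
The lines give the share of rows (vertical axis, percent) whose difference, knockout minus control (horizontal axis, log2), is at or below a value, for the 45 proteasome members, the 4139 rows with a control mean of 7 to 10, and all 25206 rows. The member line lies to the left of the others between -0.3 and 0.3 and does not extend as far to either side, since the members' differences span -0.52 to 0.30.

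The 5 genes that fell belong to the alpha ring and the 19S cap. The alpha ring, the cap's ATPases and its non-ATPases hold 8, 6 and 11 of the 45 members. Psmd12, a non-ATPase subunit of the cap's lid, read 8.79, 8.63 and 8.61 in the knockout arrays, against 9.05, 9.11 and 9.12 in the control arrays. Its difference was -0.42 (SE 0.086, limma adjusted p = 0.0201), or 1.33-fold lower. Psma4, an alpha ring subunit, read 8.84, 8.75 and 8.82 in the knockout arrays, against 9.17, 9.15 and 9.25 in the control arrays. The knockout arrays of both genes lay together below the control arrays, and Psma4 differed by -0.39 (SE 0.080, limma adjusted p = 0.0201).

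Psmd1, a large scaffold of the cap's base, had the tightest groups of the 5. It read 8.73, 8.68 and 8.70 in the knockout arrays, against 8.99, 9.03 and 8.99 in the control arrays, a difference of -0.30 (SE 0.075, limma adjusted p = 0.0442). Psmc3, an ATPase of the cap, read 8.03, 7.91 and 7.94 in the knockout arrays, against 8.23, 8.33 and 8.26 in the control arrays. Its difference was -0.31 (SE 0.081, limma adjusted p = 0.0488). Psma1, another alpha subunit, had the largest difference of all members, -0.52, and the largest error of these 5 (SE 0.136, limma adjusted p = 0.0499). It read 7.56, 7.13 and 7.64 in the knockout arrays, against 7.89, 8.01 and 8 in the control arrays, so that knockout replicate 2 stood apart from the other two.

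**Figure D2:**
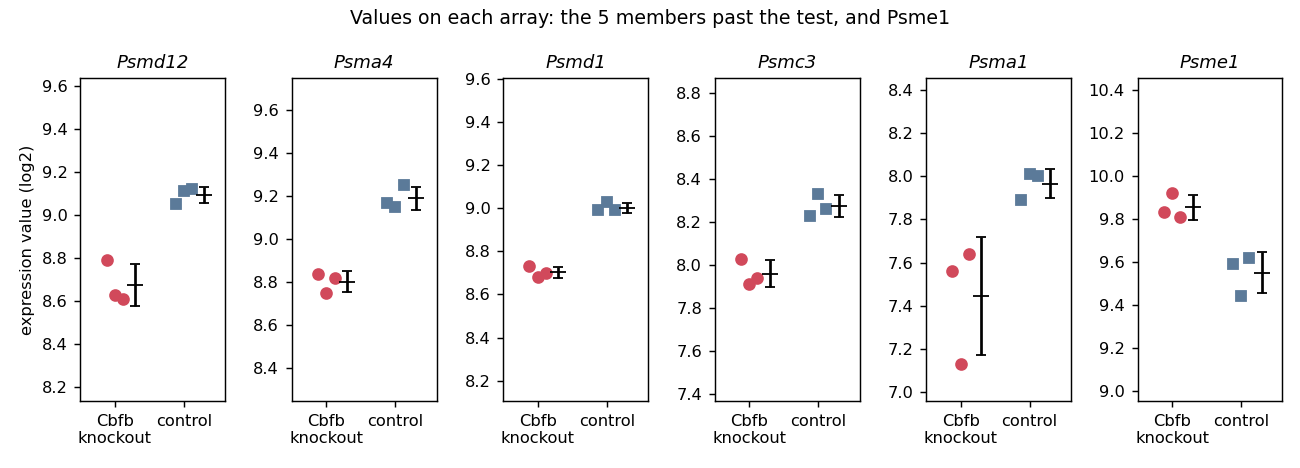
Each panel gives a gene's log2 value on the 3 knockout arrays (circles, left) and the 3 control arrays (squares, right), with the mean and SD as a bar beside them. All panels span the same height of log2 units but start at different levels. Psmd12, Psma4, Psmd1, Psmc3 and Psma1 show knockout arrays below all control arrays, and Psme1 shows them above.

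The calls depend on single arrays and on the settings of the test. The fits without knockout replicate 2, control replicate 2 or control replicate 3 called 0 members (limma, with 13, 13 and 12 members lower at an unadjusted p under 0.05), that without knockout replicate 3 called 1, that without knockout replicate 1 called 3, and that without control replicate 1 called 4. These fits called 5.19% to 7.29% of all rows. Repeated quantile normalisation called 3 members, or 6.67%, where it called 9.49% of all rows. Median centring called 2, or 4.44%, against 9.26% of all rows, and a replicate block called 0 (limma, 19 lower at an unadjusted p under 0.05), against 6.92% of all rows. In these 3 settings the members' share of calls lay below that of all rows, a difference that was not tested. The same held in each fit that left out an array, except that without control replicate 1 (8.89% of members against 7.20% of all rows). Array weights called 8 members, or 17.8%, against 10.8% of all rows. A trended and robust prior called 20 of the 45 members (19 lower, and Psme1 higher), or 44.4%, where it called 13.9% of all rows. The median difference of the members lay between -0.245 and -0.183 in the 6 fits that left out an array.

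Promoters of these genes are shown because the members that fell share a direction, and Psme1 is set beside them as the member with the largest difference upward. Each window runs 5′ to 3′ on the gene's strand from 250 bases before to 50 bases after the transcript start and comes from RefSeq on GRCm38.p6. Matches on either strand to TGTGGT or TGCGGT (RUNX core sites), TGACNNNGC (antioxidant response element core, bound by NRF1 and NRF2), CCAAT (the CCAAT box) or CACGTG (an E-box) are in capitals. Psmc3 had no entry. The windows are chr7:114276067-114276366 on the minus strand for Psma1, chr9:54950609-54950908 on the plus strand for Psma4, and chr1:86064369-86064668 on the plus strand for Psmd1. Those of Psmd12 and Psme1 are chr11:107479278-107479577 and chr14:55578244-55578543, both on the plus strand.
Psma1: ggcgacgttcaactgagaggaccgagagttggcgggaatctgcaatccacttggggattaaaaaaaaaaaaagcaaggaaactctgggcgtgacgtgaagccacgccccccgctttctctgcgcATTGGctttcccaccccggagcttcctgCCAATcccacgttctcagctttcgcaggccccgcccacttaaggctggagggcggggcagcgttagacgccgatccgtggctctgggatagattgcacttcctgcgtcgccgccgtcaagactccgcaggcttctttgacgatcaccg
Psma4: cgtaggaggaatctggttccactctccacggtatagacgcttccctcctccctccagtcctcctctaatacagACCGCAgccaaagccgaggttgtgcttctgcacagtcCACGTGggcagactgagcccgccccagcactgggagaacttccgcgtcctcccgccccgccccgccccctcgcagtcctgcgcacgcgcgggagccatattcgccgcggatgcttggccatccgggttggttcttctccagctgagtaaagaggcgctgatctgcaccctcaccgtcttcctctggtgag
Psmd1: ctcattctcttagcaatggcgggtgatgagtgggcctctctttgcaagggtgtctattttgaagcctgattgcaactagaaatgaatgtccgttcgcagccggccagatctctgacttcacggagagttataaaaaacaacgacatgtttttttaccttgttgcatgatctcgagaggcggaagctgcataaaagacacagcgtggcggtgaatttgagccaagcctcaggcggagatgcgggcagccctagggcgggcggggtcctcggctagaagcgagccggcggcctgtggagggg
Psmd12: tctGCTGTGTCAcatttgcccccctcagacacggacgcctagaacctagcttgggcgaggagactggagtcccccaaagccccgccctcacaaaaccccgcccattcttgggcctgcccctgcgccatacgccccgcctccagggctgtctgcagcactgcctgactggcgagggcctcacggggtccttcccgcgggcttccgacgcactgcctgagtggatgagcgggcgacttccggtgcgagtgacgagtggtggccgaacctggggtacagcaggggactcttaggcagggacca
Psme1: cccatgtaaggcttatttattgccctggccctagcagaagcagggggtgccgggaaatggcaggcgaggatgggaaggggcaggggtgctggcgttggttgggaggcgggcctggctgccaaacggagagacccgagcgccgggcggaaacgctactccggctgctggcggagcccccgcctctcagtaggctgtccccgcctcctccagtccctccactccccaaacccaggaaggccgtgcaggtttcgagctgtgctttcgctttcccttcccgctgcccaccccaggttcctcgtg
The windows hold different motifs. That of Psma1 has CCAAT boxes at window positions 125 and 153, that of Psma4 a TGCGGT match at 74 and an E-box at 111, and that of Psmd12 a TGACNNNGC match at 4, each counted from the window's first base. Those of Psmd1 and Psme1 hold none of the 5 motifs. In all, 37 of the 45 members had 41 windows. Of these, 24.4% hold TGTGGT or TGCGGT, against 22.4% of all 32851 windows, 12.2% hold TGACNNNGC, against 12.4%, and 34.1% hold CCAAT, against 37.4%. CACGTG stands in 9.76% of the members' windows, against 7.15% of all. These are matches of letters in a short window and show no binding.

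In the alpha ring, which closes the barrel and opens it to substrates, 2 of 8 measured genes fell and 6 did not pass, with a median difference of -0.34. Of all rows 4.24% were called lower, and 13.4% had knockout arrays wholly below control arrays. Among rows with a control mean of 7 to 10, these shares were 12.9% and 34.2%. Besides Psma4 and Psma1, knockout arrays lay wholly below control arrays for Psma2, Psma6, Psma3 and Psma7, with differences of -0.37, -0.32, -0.26 and -0.18 (limma adjusted p 0.057 to 0.258). Psma2, for example, read 9.02, 8.99 and 8.95 in the knockout arrays, against 9.18, 9.50 and 9.39 in the control arrays. Psma5 read 2.44, 1.15 and 1.74 in the knockout arrays, against 2.22, 2.33 and 2.09 in the control arrays, under 3.6, the median of all group means. Its groups overlapped, and its 95% interval of -1.07 to 0.20 was the widest among the members. RefSeq also lists pseudogenes of Psma5, Psmb6 and Psmb7 that have no row here, so readings of these genes are uncertain. Psma8, a testis form of an alpha subunit, read 2.64, 2.67 and 2.51 in the knockout arrays, against 2.70, 2.33 and 2.17 in the control arrays. That is the highest difference of the ring, 0.21 (limma adjusted p = 0.444), at a level where no detection call separates signal from background.

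The beta rings differed less, and none of their 6 measured genes passed the test (limma), 2 of them, Psmb7 and Psmb2, being lower at an unadjusted p under 0.05. Across all rows 4.24% were called lower and 10.9% were lower at that unadjusted p. Between control means of 7 and 10, 12.9% of rows were called lower. Whether the beta rings differ from the other roles was not tested. Psmb7, the subunit with trypsin-like activity, read 10.08, 9.95 and 9.89 in the knockout arrays, against 10.14, 10.26 and 10.15 in the control arrays (difference -0.21, limma adjusted p = 0.202). Its groups did not overlap. Psmb6, the subunit with caspase-like activity, read 9.41, 9.46 and 9.40 in the knockout arrays, against 9.42, 9.38 and 9.56 in the control arrays. Its groups overlapped, and the 95% interval of the difference was -0.22 to 0.16. Of the non-catalytic subunits Psmb2 had the largest difference, with 9.13, 8.99 and 9.15 in the knockout arrays, against 9.30, 9.31 and 9.44 in the control arrays (-0.26, limma adjusted p = 0.117). Psmb1 read 9.39, 9.25 and 9.32 in the knockout arrays, against 9.30, 9.36 and 9.31 in the control arrays, with an interval of -0.19 to 0.18, and Psmb4 lay between them at -0.12. Psmb11, the thymus form of a catalytic subunit, read 2.69, 2.75 and 2.56 in the knockout arrays, against 2.35, 2.64 and 2.53 in the control arrays, a low level (difference 0.16, limma adjusted p = 0.425).

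The 19S ATPases, which pull substrates into the barrel, were lower in the knockout arrays in all 6 measured genes by mean, and Psmc3 passed the test. Their differences ran from -0.36 (Psmc1) to -0.20 (Psmc6), with a median of -0.26. Of rows with a control mean of 7 to 10, 58.1% had a difference below 0 and 12.9% were called lower. In 34.2% of those rows knockout arrays lay wholly below control arrays. Psmc1 read 7.71, 7.49 and 7.68 in the knockout arrays, against 7.78, 8.19 and 7.99 in the control arrays (limma adjusted p = 0.115). Psmc6 read 9.17, 9.03 and 9.03 in the knockout arrays, against 9.11, 9.35 and 9.36 in the control arrays, the only overlap among the 6 ATPases (limma adjusted p = 0.295). Psmc5, Psmc2 and Psmc4 lay between them at -0.27, -0.25 and -0.22.

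The 11 non-ATPase subunits of the cap with Psmd symbols all had a difference below 0, with a median of -0.27. Of these 2 fell, Psmd12 and Psmd1, and 9 did not pass, while knockout arrays lay wholly below control arrays in 9 of the 11. Among rows with a control mean of 7 to 10, 58.1% had a difference below 0. In that window 12.9% were called lower, and 34.2% had knockout arrays wholly below control arrays. Psmd14, the enzyme that cuts the ubiquitin chain off the substrate, read 8.55, 8.34 and 8.41 in the knockout arrays, against 8.58, 8.86 and 8.98 in the control arrays. Its difference of -0.37 did not pass (SE 0.12, limma adjusted p = 0.0994), though 4 of the 12 alternative settings called it, with adjusted p between 0.0224 and 0.257. Its highest knockout array, at 8.55, lay just below its lowest control array, at 8.58. Of the other lid subunits, Psmd3, Psmd13, Psmd6 and Psmd11 differed by -0.32, -0.30, -0.27 and -0.25 (limma adjusted p 0.068 to 0.182). Psmd2, a docking scaffold of the base, differed by -0.26, and Psmd4, a ubiquitin receptor, by -0.22. Psmd8 had the smallest difference of the cap, with 9.38, 9.34 and 9.39 in the knockout arrays, against 9.42, 9.44 and 9.40 in the control arrays (interval -0.22 to 0.12), and Psmd7, the partner of Psmd14, differed by -0.08.

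**Figure D3:**
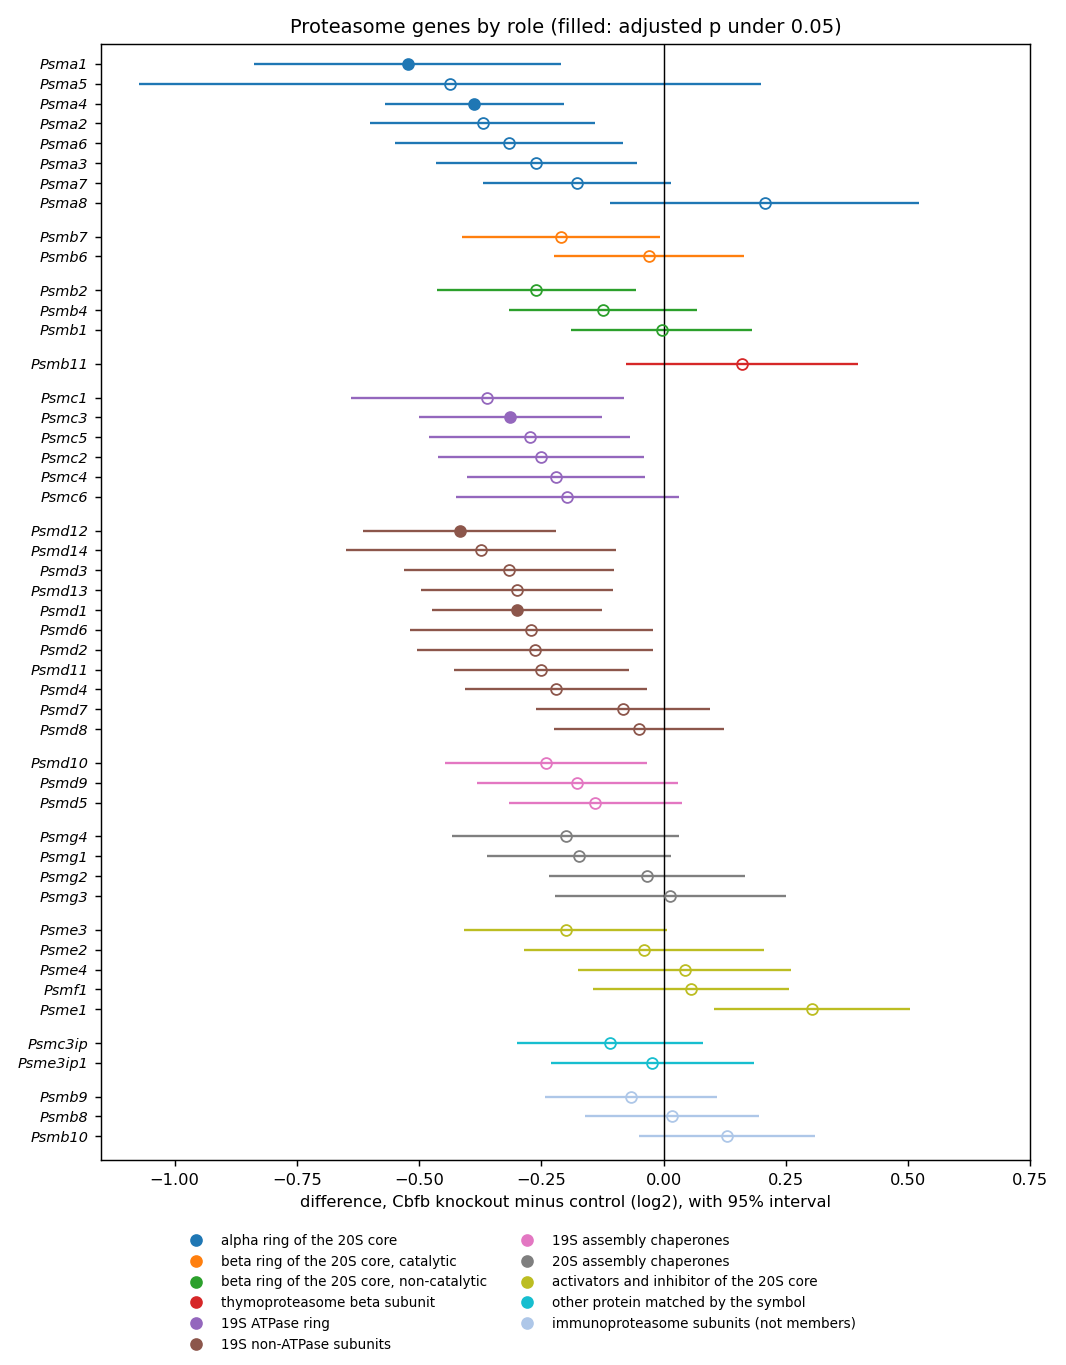
Each point is a gene's difference, knockout minus control (horizontal axis, log2), with its 95% interval, grouped by role down the page, and filled where the adjusted p is under 0.05. The 5 filled points are in the alpha ring and the 19S cap, the points of the ATPases and the Psmd non-ATPases of the cap all lie below 0, and those of the activators and the immunoproteasome lie on both sides of 0.

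Genes of the assembly chaperones did not pass the test, and of these only Psmd10 had an unadjusted p under 0.05 (0.0276, limma). Across all rows 4.24% were called lower and 10.9% were lower at that unadjusted p. The 19S chaperone genes Psmd10 (gankyrin), Psmd9 and Psmd5 had knockout arrays below all control arrays in all 3 cases, where 13.4% of all rows did. Psmd10 read 6.26, 6.31 and 6.49 in the knockout arrays, against 6.57, 6.62 and 6.59 in the control arrays, a difference of -0.24 (limma adjusted p = 0.151). Psmd5 differed by -0.14, with 8.01, 7.92 and 7.95 in the knockout arrays, against 8.12, 8.10 and 8.08 in the control arrays (limma adjusted p = 0.340). The chaperones of the 20S core, which join the alpha subunits into a ring, had a median difference of -0.10. Psmg4 read 4.25, 4.02 and 4.03 in the knockout arrays, against 4.27, 4.21 and 4.42 in the control arrays (-0.20, limma adjusted p = 0.295). Psmg3 read 5.64, 5.31 and 5.39 in the knockout arrays, against 5.44, 5.40 and 5.46 in the control arrays, overlapping groups with an interval of -0.22 to 0.25. Psmg1 and Psmg2 differed by -0.17 and -0.03.

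The activators and the inhibitor of the core had the highest median of the roles with more than 1 gene, 0.04, and 0 of 5 passed (limma; Psme1 alone had an unadjusted p under 0.05, 0.00817). Across all rows 9.75% were called in either direction, and 12% were higher at that unadjusted p. Psme1, the alpha chain of the PA28 activator, which interferon induces, read 9.83, 9.92 and 9.81 in the knockout arrays, against 9.59, 9.44 and 9.62 in the control arrays. It was the member with the largest difference upward, 0.30 (SE 0.087, limma adjusted p = 0.0702), and 3 of the 12 alternative settings called it, with adjusted p between 0.00477 and 0.221. Psme2, its partner chain, read 5.12, 5.41 and 5.21 in the knockout arrays, against 5.42, 5.22 and 5.22 in the control arrays, with an interval of -0.28 to 0.20. A near-identical gene, Psme2b, stands in the RefSeq table without a row here, so the reading of Psme2 is uncertain.

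Psme3, the nuclear activator PA28γ, differed the other way. It read 9.07, 9.06 and 9.02 in the knockout arrays, against 9.16, 9.20 and 9.39 in the control arrays, without overlap (-0.20, limma adjusted p = 0.235). Psme4, the activator PA200, read 7.71, 7.60 and 7.69 in the knockout arrays, against 7.47, 7.71 and 7.69 in the control arrays, whose groups overlapped. Psmf1, the inhibitor PI31, read 7.74, 7.69 and 7.85 in the knockout arrays, against 7.79, 7.67 and 7.65 in the control arrays. The groups overlapped here too, with intervals of -0.17 to 0.26 for Psme4 and -0.14 to 0.26 for Psmf1. The symbol-matched proteins Psmc3ip and Psme3ip1 differed by -0.11 (limma adjusted p = 0.507) and -0.02 (limma adjusted p = 0.923), and both overlapped.

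The immunoproteasome subunits, which replace the cutting subunits in many lymphocytes, did not pass the test either, nor reached an unadjusted p under 0.05 (limma, 0.136 to 0.834). Calls in either direction made up 9.75% of all rows. Psmb8 read 9.61, 9.52 and 9.57 in the knockout arrays, against 9.52, 9.57 and 9.56 in the control arrays, with an interval of -0.16 to 0.19. Psmb9 read 8.02, 8.10 and 8.07 in the knockout arrays, against 8.11, 8.13 and 8.15 in the control arrays, and Psmb10 read 8.58, 8.54 and 8.54 in the knockout arrays, against 8.40, 8.49 and 8.38 in the control arrays. The groups did not overlap in either, with Psmb9 lower (-0.07, limma adjusted p = 0.689) and Psmb10 higher (0.13, limma adjusted p = 0.392). The within-array difference of Psmb10 minus Psmb7, the subunit it replaces, was -1.42 ± 0.075 in the knockout and -1.76 ± 0.017 in the control arrays (SD, n = 3). The shift of 0.34 gave a two-sided exact permutation p of 0.1, the smallest that 3 against 3 arrays allow (adjusted p = 0.2 over 2 pairs). Psmb9 minus Psmb6 was -1.36 ± 0.030 in the knockout and -1.32 ± 0.081 in the control arrays, a shift of -0.04 (exact permutation p = 0.6, adjusted p = 0.6). With a smallest p of 0.1, this test could not pass at 0.05 for either pair and does not decide whether they shifted. Such a ratio also cannot tell which of the genes moved.

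The lean was present on every knockout array, to different degrees. Measured from each gene's control mean, the 45 members stood on average at -0.119 on knockout array 1, -0.226 on knockout array 2 and -0.196 on knockout array 3. On the control arrays the same average was -0.038, 0.016 and 0.023, and the same mean over all rows stayed between -0.006 and 0.011 on the 6 arrays. Knockout replicate 1 had the highest knockout value in 29 members, and knockout replicate 2 the lowest in 25. Control replicate 1 had the lowest control value in 26 members. On the 3 knockout arrays 37, 40 and 38 of the 45 members read below their control mean, against 30, 15 and 16 on the 3 control arrays. The same counts over all 25206 rows were 12558, 12299 and 13377 on the knockout arrays and 12004, 12603 and 12892 on the control arrays. The 19S non-ATPase subunits stood at -0.196, -0.288 and -0.292 on the knockout arrays, against -0.052, -0.005 and 0.058 on the control arrays. The core activators and inhibitor averaged 0.011, 0.053 and 0.033 in the knockout arrays and 0.003, -0.035 and 0.031 in the control arrays.

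**Figure D4:**
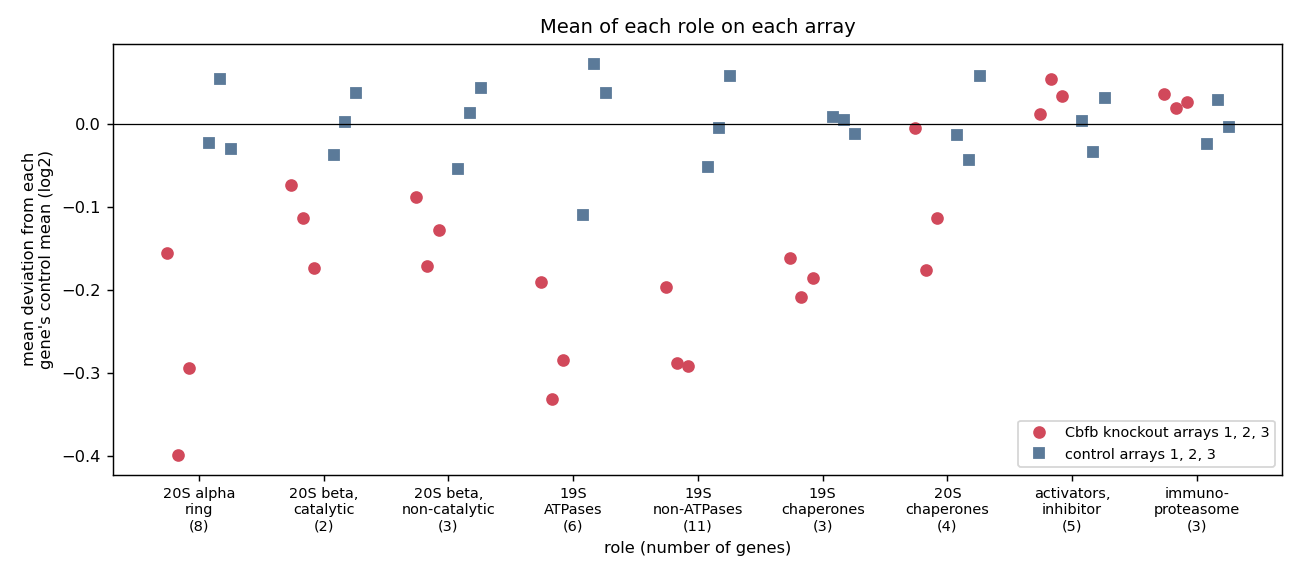
For each role (horizontal axis, with the number of genes), the vertical axis gives the mean over its genes of the log2 deviation from the gene's own control mean, on knockout arrays 1, 2 and 3 (circles, left) and control arrays 1, 2 and 3 (squares, right). In the alpha ring, the catalytic and non-catalytic beta subunits (drawn without Psmb11, whose groups overlap), the Psmc and Psmd genes of the cap and the 19S chaperones all knockout circles lie below the control squares, while in the 20S chaperones, the activators and the immunoproteasome the groups overlap.

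Other genes of the pathway, from lists chosen with earlier results of these data known, moved less uniformly. Of 31 measured genes on these lists (the immunoproteasome included, of 40 listed), 3 fell and none rose, where 4.24% of all rows were called lower and 9.75% in either direction. Their median difference was -0.08 (limma; at an unadjusted p under 0.05, 6 were lower and 1, Ubqln4, was higher). Knockout arrays lay wholly below control arrays in 11 of the 31 and wholly above in 7, against 13.4% and 14.1% of all rows. The median control level of these genes was 8.23. Of the 4139 rows with a control mean of 7 to 10, 1414, or 34.2%, lay wholly below and 874 wholly above, and 12.9% were called lower. Among 9 measured proteasome factors with other names 0 passed (limma; Uchl5 alone had an unadjusted p under 0.05, 0.0294), with a median of -0.14. Pomp, which matures the core, read 8.67, 8.62 and 8.62 in the knockout arrays, against 8.83, 8.85 and 8.75 in the control arrays (-0.17, limma adjusted p = 0.235). The groups did not overlap in Pomp, nor in Uchl5, a deubiquitinase of the cap (-0.23, limma adjusted p = 0.157), or Txnl1, a thioredoxin of the cap (-0.19, limma adjusted p = 0.264). Nor did they overlap, with the knockout arrays higher, in Sem1 and Akirin2. Sem1, the smallest cap subunit and one without a Psmd symbol, read 8.45, 8.48 and 8.42 in the knockout arrays, against 8.29, 8.41 and 8.40 in the control arrays (0.08, interval -0.10 to 0.27). Akirin2, a factor in nuclear import of proteasomes, differed by 0.10 (limma adjusted p = 0.501).

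Among 10 measured shuttles and factors of the p97 unfoldase, which hand ubiquitin-tagged proteins to the proteasome, 1 fell and 9 did not pass. Of all rows 4.24% were called lower, and of those with a control mean of 7 to 10, 12.9% were. Zfand5, a zinc finger protein that binds the proteasome and stimulates it, read 7.91, 7.86 and 7.83 in the knockout arrays, against 8.34, 8.39 and 8.39 in the control arrays. The groups were tight and far apart, with a difference of -0.51 (SE 0.077, limma adjusted p = 0.00588), and the call held in all 12 alternatives (adjusted p 0.000159 to 0.0302). Its relative Zfand2a, which stress induces, differed by -0.37 (limma adjusted p = 0.0538), and Nploc4, a p97 cofactor, by -0.25 (limma adjusted p = 0.114). Vcp, p97 itself, differed by -0.09 (interval -0.27 to 0.09).

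In the list of NRF1-driven transcription 2 of 8 measured genes fell and 6 did not pass, while 5 of the 8 had a difference above 0 and the median was 0.05. Of all rows 4.24% were called lower and 9.75% in either direction. Mafk, a small MAF protein that pairs with NRF1 and NRF2 on DNA, read 6.52, 6.60 and 6.37 in the knockout arrays, against 7.58, 7.44 and 7.28 in the control arrays. Its difference of -0.94 (SE 0.107, limma adjusted p = 0.00164) is larger than that of any proteasome member. Maff, another small MAF gene, read 4.29, 4.41 and 4.04 in the knockout arrays, against 4.91, 4.76 and 4.60 in the control arrays (-0.51, limma adjusted p = 0.0385). Its call was lost without knockout replicate 1 or 3 and without control replicate 1 or 2 (adjusted p 0.0817 to 0.112). Nfe2l1 read 8.42, 8.48 and 8.38 in the knockout arrays, against 8.50, 8.40 and 8.45 in the control arrays, overlapping groups with an interval of -0.21 to 0.16. Nfe2l2, the gene of NRF2, read 7.99, 8.18 and 8.23 in the knockout arrays, against 7.95, 7.90 and 7.93 in the control arrays (0.21, limma adjusted p = 0.224). Its knockout arrays lay above all control arrays, as did those of Sel1l (0.13, limma adjusted p = 0.430) and Syvn1 (0.06, limma adjusted p = 0.723), which act in the disposal of proteins from the endoplasmic reticulum. Knockout arrays lay wholly above control arrays in 14.1% of all rows. The protein processing that activates NRF1 is not measured by these arrays. Of 6 listed ubiquitin genes and activating enzymes only Uba6 had a named row, with a difference of 0.06 (limma adjusted p = 0.791).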

How the data were processed

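Total RNA was extracted with Trizol and labelled with biotin for single-colour arrays, per the labels' protocols. Expression is deposited as log2 values. RMA and limma 3.14.4 appear in the submitters' processing notes, without a stated role. The log2 scale was read from the values (0.66 to 12.51), and the array annotation and build are not given in the sources used here. RMA equalises array distributions, which hides any shift common to the majority of genes, and it compresses differences near background.

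Symbols came from the platform annotation through the Entrez number (23185 of 25206 rows, 2021 without), updated through RefSeq's GRCm38.p6 table. Values were tested as deposited with limma 3.58.1 in R 4.3.3 (knockout minus control, 4.1 prior degrees of freedom), Benjamini-Hochberg over all rows, threshold 0.05, with no filter. The code of the test was checked on simulated data with independent noise. That check is not used here to judge how well small differences are found. Depth does not apply; 3 arrays per group limit the precision, and the median residual SD was 0.131.

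Members, lists and tests were chosen with earlier results of these data known, and the motifs and the level window after seeing the values. Named in full were members past the test, preset genes (catalytic and immunoproteasome subunits, Psmd14, Psme3, Psme4, Psmf1, Pomp), the extremes of each role, and up to 3 leading genes of each other list. Gene names on other lists that had no named row were not analysed here. Alternatives were a replicate block, leaving out each array, repeated quantile normalisation, median centring, rows above the median level, a trended robust prior, and array weights.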

Additional observations from a re-analysis of the deposited data

How the results depend on the processing

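The members' median difference, -0.21 in the main fit, kept its sign and lay between -0.245 and -0.183 in all 12 alternatives. The SD of the members' mean between arrays of the same group, pooled over both groups, was 0.0458. The number of members called did not hold. It was 3 after repeated quantile normalisation (2 lower, 1 higher; 9.49% of all rows called), 2 with median centring (both lower; 9.26% of rows), 16 among rows above the median level (15 lower, 1 higher, where 27.9% of those rows were called), 20 with the trended and robust prior (19 lower, 1 higher; 13.9% of rows) and 8 with array weights (all lower; 10.8% of rows). Leaving out an array gave 0 to 4 members called, all of them lower, 1307 to 1837 rows in all and 2 to 3 genes of the other lists. The other lists gave 5 among rows above the median level and 7 with the trended and robust prior. With a replicate block 0 members passed (19 were lower at an unadjusted p under 0.05), against 5 without it, and 1745 rows, or 6.92%, passed. Deviations of same-numbered arrays correlated over all rows at 0.025, 0.0067 and 0.054. Values this near 0 do not settle whether same-numbered samples were paired, since a pairing could touch few genes. With the block the shifts of Psmb10 minus Psmb7 and Psmb9 minus Psmb6 were unchanged by construction (paired exact permutation p = 0.25 and 0.75). The value of 0.25 is the smallest that 3 pairs allow, so the paired test could not pass. With an array left out, Psmb9 minus Psmb6 shifted by -0.08 to 0 and Psmb10 minus Psmb7 by 0.305 to 0.38. Psmb8 minus Psmb5 was not run, since Psmb5 had no named row.

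Among the genes followed one by one through the alternatives, signs changed only where the difference was near 0 and not called. Other members, Psme2 and Psmg2 among them, were not followed in this way. With array weights 38 of the 45 members lay below 0, against 39 in the main fit. After repeated quantile normalisation Psmb6 was 0.014, Psmb1 0.052, Psmd8 0.0017, Psmg3 -0.065 and Psme3ip1 0.018, and with median centring Psmb1 was 0.0033. With an array left out, the ranges were -0.067 to 0.023 for Psmb6, -0.005 to 0.04 for Psmb8, -0.033 to 0.087 for Psme4, -0.038 to 0.032 for Psmb1, -0.083 to 0.082 for Psmg3, -0.08 to 0.025 for Psme3ip1 and -0.018 to 0.107 for Uba6. The causes of these changes were not tested.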
